A study of Oryctolagus cuniculus with 16 samples.

Results

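DUOXA1 and DUOXA2, the genes for the maturation factors of the dual oxidases, were described in 16 RNA-seq libraries from the basilar artery (BA) and basilar terminus (BT) of 4 female New Zealand white rabbits. These 2 genes, of 13788 gene symbols in the counts and 11925 with a count in at least 1 library, were selected by name because they were at or near 0 in the intima of sham animals and counted after ligation. The intimal difference between ligated and sham animals therefore chose the genes and is given as a description, without a test. Rabbits 3 and 4 had sham surgery with normal flow, and rabbits 5 and 6 had both common carotid arteries ligated, which raises flow in the BA. Tissue was taken 24 h later, and the intima and the media were laser-microdissected separately, so each of the 8 groups (sham or ligated, BA or BT, intima or media) held 2 libraries from 2 rabbits. The 4 libraries of a rabbit came from the same animal. An intimal strip also carried some smooth muscle, and each library combined the strips of several sections.

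Dual oxidases are membrane NADPH oxidases that release hydrogen peroxide at the cell surface. DUOX1 needs DUOXA1, and DUOX2 needs DUOXA2, to fold in the endoplasmic reticulum and reach the plasma membrane as an active enzyme. The pairs are best known from the thyroid, where the peroxide serves hormone synthesis, and from airway and gut epithelium. In vessel walls the better known members of the wider enzyme family are NOX4, NOX1 and CYBB (the NOX2 catalytic subunit). In many mammals each maturation factor gene lies head to head with its oxidase gene.

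Library totals over named genes were 6694436 to 17686105 in the 4 sham intimal libraries and 5211886 to 11462861 in the 4 ligated ones. In the media they ranged from 3978419 to 11219236 in sham and from 2154863 to 8504341 in ligated animals. A count of 0 allows up to 3 counts at 95%, for counting error only, which corresponds to 0.169 to 0.439 CPM in the sham intima. CPM are counts relative to the library total over named genes, on the usual CPM scale, after TMM scaling over the 16 libraries. Of 10 endothelial markers, 9 were measured, and their summed level was 1232 to 5928 CPM in the sham and 2288 to 3840 CPM in the ligated intima, with all 9 counted in every sham library and 8 or 9 in the ligated ones. In tissue samples of this kind, fewer cells of a type and less RNA per cell cannot be told apart.

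DUOXA1 had no read in any of the 4 sham intimal libraries. In the ligated BA intima it had 38 reads (4.05 CPM) in rabbit 5 and 97 reads (16.6 CPM) in rabbit 6, a mean of 10.3 ± 8.87 CPM (SD, n = 2 rabbits). In the ligated BT intima it had 570 reads (49.3 CPM) in rabbit 5 and 556 reads (45.8 CPM) in rabbit 6, a mean of 47.5 ± 2.45 CPM (SD, n = 2). Every ligated intimal library thus held more DUOXA1 than every sham one, and the BT libraries of both rabbits held more than the BA libraries. Taken against the 3 counts per library that a count of 0 allows, the level was at least 52.5-fold higher with ligation in the BA and at least 148-fold higher in the BT.

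DUOXA2 showed the same split of the libraries. In the sham intima it had 1 read in the BA of rabbit 4 (0.0747 CPM) and none in the other 3 libraries. The ligated BA intima held 271 reads (28.9 CPM) in rabbit 5 and 149 reads (25.5 CPM) in rabbit 6, with a mean of 27.2 ± 2.38 CPM (SD, n = 2). In the ligated BT intima there were 803 reads (69.4 CPM) in rabbit 5 and 750 reads (61.8 CPM) in rabbit 6, with a mean of 65.6 ± 5.39 CPM (SD, n = 2). In the BA the pooled reads, 420 in ligated and 1 in sham rabbits, gave a ratio of 858 per library size. Its 95% exact binomial interval, 153 to 33973, covers counting error only and treats amplified reads pooled over 2 rabbits as independent. These reads chose the gene, so the interval is not a test of ligation. In the BT, with no sham read, the level was at least 204-fold higher. The 2 rabbits of a flow group differed little for this gene, and no sham library came near a ligated one.

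**Figure D1:**
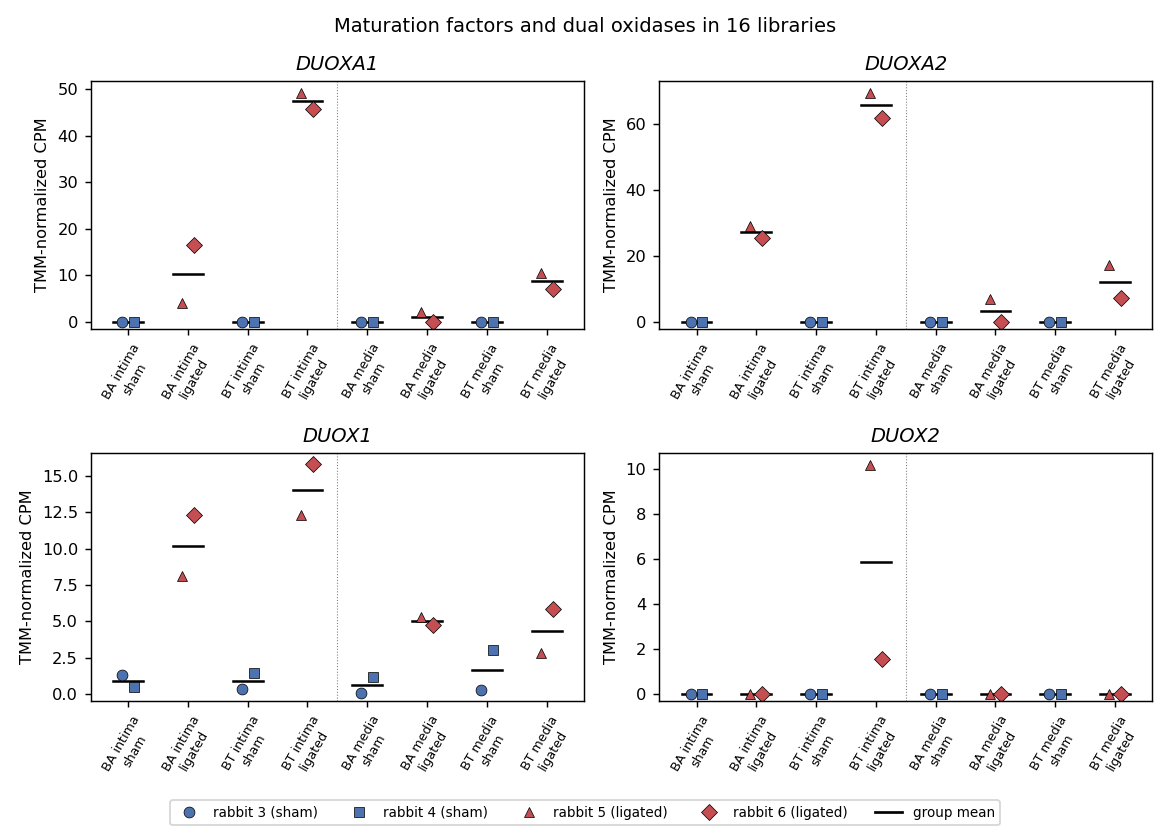
TMM-normalized CPM (vertical axes, linear, a separate scale for each gene) of DUOXA1, DUOXA2, DUOX1 and DUOX2 in the 8 groups, with 1 point per library, the symbol giving the rabbit, and a line at the mean of the 2 rabbits. DUOXA1 and DUOXA2 lie at or next to 0 in all sham groups and reach 49.3 and 69.4 CPM in the ligated BT intima, whereas DUOX1 is also counted in sham libraries and DUOX2 is counted only in the ligated BT intima.

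The pattern that chose these genes was uncommon among all genes. At most 3 counts in each of the 4 sham intimal libraries together with more than 3 in each of the 4 ligated ones was found for 4 of the 11925 genes with a count (0.0335%). Both DUOXA genes are among them by the way they were chosen, and nothing is read from that. The other 2, named after their values were seen, were CLIC5, a chloride intracellular channel family member, and NUAK1, an AMPK-related kinase. CLIC5 lay at 6.16 to 23.5 CPM in the ligated intima and NUAK1 at 0.741 to 1.92 CPM, so that NUAK1 sat just inside the limits, with up to 3 reads in a sham and a lowest count of 8 in the ligated libraries. Of the 4 genes, 3 also had at most 3 counts in each sham media library (0.0252%), NUAK1 being the exception. The opposite pattern, counted in 4 sham and at most 3 counts in 4 ligated intimal libraries, was found for 62 genes (0.520%).

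**Figure D2:**
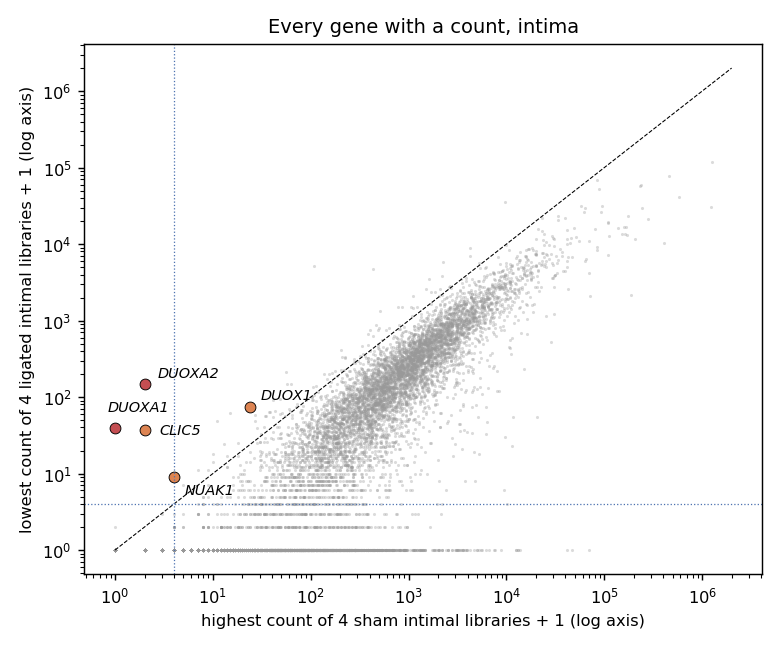
For each of the 11925 genes with a count, the highest count among the 4 sham intimal libraries plus 1 (horizontal, log axis) against the lowest count among the 4 ligated intimal libraries plus 1 (vertical, log axis). The dashed line marks equal values and the dotted lines mark 3 counts. DUOXA1, DUOXA2, CLIC5 and NUAK1 are the 4 genes above the horizontal and on or left of the vertical dotted line, and DUOX1 lies above the line of equal values with at most 23 counts in sham.

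Blood flow at the BT apex meets the vessel wall differently from flow in the straight BA, so the levels of the ligated intima were compared between the locations, a contrast that the choice of the genes did not use. DUOXA1 was 12.2-fold higher in the BT than in the BA of rabbit 5 and 2.76-fold higher in rabbit 6. For DUOXA2 the ratio of BT to BA was 2.40 in rabbit 5 and 2.42 in rabbit 6. Both genes were thus higher in the BT in both ligated rabbits, and the share of all genes with that order is not given. The summed level of the 6 measured smooth muscle markers was 40614 CPM in the BA and 10590 CPM in the BT intima of rabbit 5. In rabbit 6 it was 44847 and 46619 CPM. The part of tissue make-up in the location difference was not tested. In a fit over the 8 intimal libraries the log2 difference, BT minus BA, was 2.20 for DUOXA1 (standard error, SE, 0.99, adjusted p = 1.00) and 1.26 for DUOXA2 (SE 0.73, adjusted p = 1.00). Here and throughout, adjusted p-values (q) are Benjamini-Hochberg values from edgeR's quasi-likelihood test unless DESeq2 is named. Neither passed a q-value of 0.05 over the 9641 genes tested, of which 0 (0%) passed and 345 (3.58%) had an unadjusted p below 0.05, and DESeq2 called neither of the 2 genes. The DUOXA1 difference was 1.44 without rabbit 5 and 3.60 without rabbit 6.

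The unequal step of DUOXA1 and DUOXA2 between the locations came with a different balance of the genes in 1 library. Of the reads on both genes together, DUOXA1 took 41.5% in the ligated BT intima of rabbit 5 (95% exact binomial interval 38.9% to 44.2%, 1373 reads), 42.6% in that of rabbit 6 (39.9% to 45.3%, 1306 reads) and 39.4% in the ligated BA intima of rabbit 6 (33.3% to 45.8%, 246 reads). In the ligated BA intima of rabbit 5 its share was 12.3% (8.85% to 16.5%, 309 reads). That interval lies below those of the other 3 intimal libraries, whose intervals overlap one another. For the library with the lowest share, the study lists the lowest RNA concentration of all its samples. The part of RNA concentration in this share, and in the step of DUOXA1 between the locations in the same rabbit, was not tested. In the ligated BT media the share was 38.2% (28.1% to 49.1%, 89 reads) in rabbit 5 and 48.8% (39.7% to 58.0%, 123 reads) in rabbit 6. The BA media of rabbit 5, with 17 reads, gave 23.5% (6.81% to 49.9%), an interval that overlaps all the others. The intervals cover counting error only, since amplified reads are not independent molecules, and shares were not corrected for the lengths of the 2 transcripts.

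**Figure D3:**
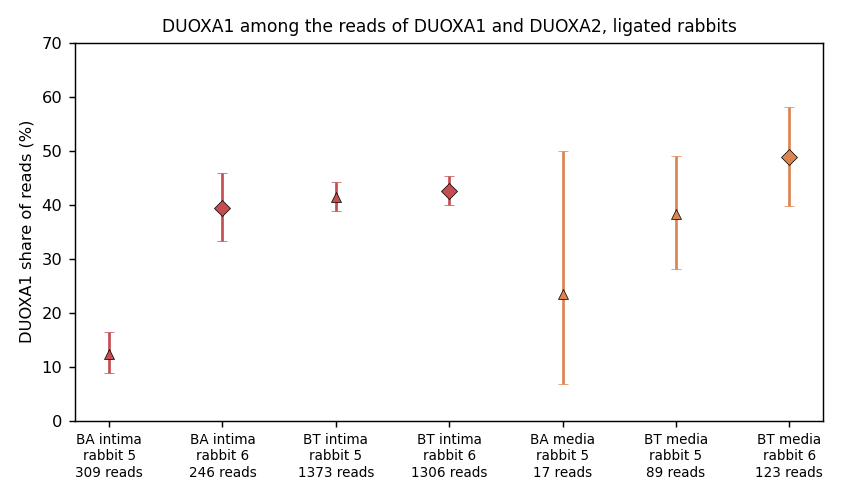
Share of DUOXA1 (vertical axis, percent) among the reads on DUOXA1 and DUOXA2 in the 7 libraries with more than 3 such reads, all from ligated rabbits, with 95% exact binomial intervals as bars, intima in red and media in orange. The ligated BA intima of rabbit 5 lies at 12.3%, and the other intimal libraries lie between 39.4% and 42.6%.

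The media were not used to choose the genes, but they came from the same 4 rabbits. All 4 sham media libraries had 0 reads of both genes. In the ligated BT media DUOXA1 had 34 reads (10.6 CPM) in rabbit 5 and 60 reads (7.01 CPM) in rabbit 6, and DUOXA2 had 55 reads (17.1 CPM) and 63 reads (7.36 CPM). Both ligated BT libraries lay above both sham ones for each gene, as did 25.4% of all genes tested there. The level was at least 13.0-fold higher for DUOXA1 and at least 18.1-fold higher for DUOXA2. DUOXA2 passed in the BT media (edgeR q = 0.0489), where 1.16% of 8783 genes tested had increased expression at a q-value of 0.05. Both genes met the minimum of 1 CPM there only through the ligated libraries, so the direction was fixed by that minimum and the pass is not independent support for it. DUOXA1 did not pass (edgeR q = 0.0899). The call of DUOXA2 stood next to the threshold and was lost under 7 of 12 alternatives, with q = 0.310 without rabbit 5 and q = 0.132 without rabbit 6, while DUOXA1 passed without rabbit 3 (q = 0.0432), with all genes tested (q = 0.0187) and with DESeq2 (q = 0.00921).

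In the BA media the reads came from 1 rabbit. Rabbit 5 had 4 reads of DUOXA1 (2.11 CPM) and 13 reads of DUOXA2 (6.86 CPM), and rabbit 6 had none of either. For DUOXA2 the comparison gave q = 0.439 with edgeR, where 0.807% of 8800 genes passed and 0.432% passed with an increase. DUOXA1 was not tested because its mean stayed under 1 CPM in that fit. At 4277023 counts, the rabbit 6 library allows up to 0.786 CPM for a count of 0.

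The ratio of intima to media of both genes was set beside that of the endothelial markers within each ligated pair of libraries. DUOXA1 was 4.65-fold and DUOXA2 4.05-fold higher in the intima of the BT in rabbit 5, and 6.53-fold and 8.39-fold in rabbit 6. The endothelial markers had a median ratio of 2.14 (0.208 to 10.6, 9 genes) in the first pair and 7.39 (1.33 to 10.9, 8 genes) in the second. In the BA of rabbit 5 the ratio was 1.92 for DUOXA1 and 4.21 for DUOXA2, against a median of 2.54 for the markers (0.690 to 7.57, 8 genes). In the BA of rabbit 6 it was at least 21.1 and at least 32.4, against a median of 36.6 (0.653 to 114, 9 genes). The 2 maturation factors thus lay within the wide range of the endothelial markers where both layers had reads. In the BA of rabbit 6 only their lower bounds lay in that range, and the ratios themselves are not known. Both genes were chosen on intimal levels, so these ratios are a description, and the cells that held the reads were not tested. The BA media of rabbit 6, which lacked DUOXA reads, held 460 CPM summed over the 9 measured endothelial markers, and that of rabbit 5 held 1062 CPM. Single markers differed unevenly between these 2 libraries. PECAM1 lay at 5.77 and 148 CPM and ESAM at 367 and 400 CPM, and CDH5 had no read and 8.44 CPM. The part of intimal material in the medial reads was not tested.

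**Figure D4:**
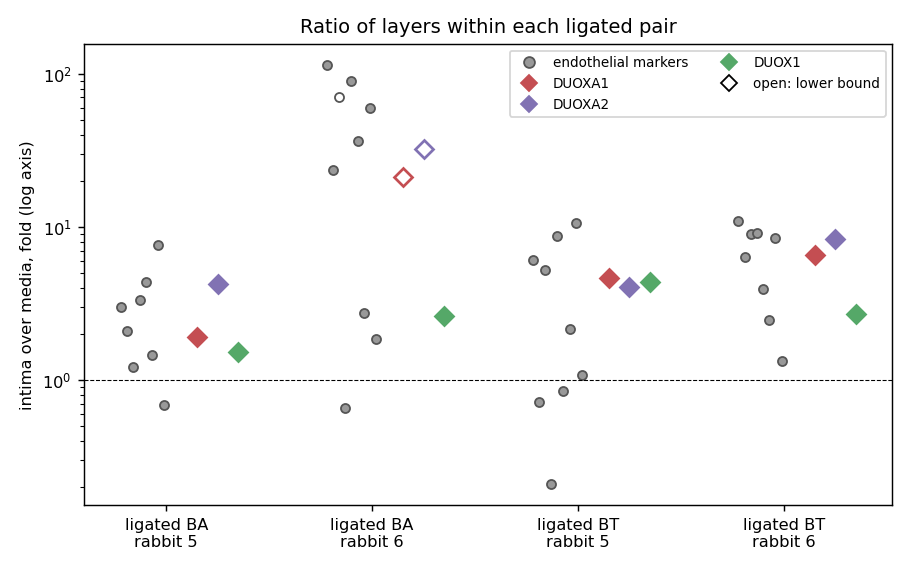
Ratio of intima to media (vertical axis, log scale) within each of the 4 pairs of ligated libraries for DUOXA1, DUOXA2 and DUOX1 (diamonds) and for the endothelial markers (circles, with 1 per gene). Open symbols are lower bounds where the medial library had no read. DUOXA1 and DUOXA2 lie inside the spread of the markers, in the BA of rabbit 6 only by their lower bounds of 21.1 and 32.4, which are the largest values of both genes.

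DUOX1, the partner oxidase of DUOXA1, was counted in all 16 libraries, including the sham libraries in which DUOXA1 was at 0. In the intima it had 23 reads (1.30 CPM) and 6 reads (0.448 CPM) in the sham BA and 76 reads (8.09 CPM) and 72 reads (12.3 CPM) in the ligated BA. In the BT intima it had 5 reads (0.338 CPM) and 10 reads (1.46 CPM) in sham and 142 reads (12.3 CPM) and 192 reads (15.8 CPM) in ligated rabbits. The 4 ligated intimal libraries all lay above the 4 sham ones. Both ligated libraries lay above both sham libraries for 15.4% of all genes tested in the BA intima and for 20.4% in the BT intima. The fitted log2 fold change was 3.51 in the BA (SE 1.45, edgeR q = 0.807) and 3.99 in the BT (SE 1.33, q = 0.346). DUOX1 therefore did not pass over all genes in either location with edgeR. DESeq2 called it in the BT intima (q = 0.0321) and not in the BA intima (q = 0.227).

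In the media, DUOX1 lay at 0.0943 and 1.15 CPM in the sham and 5.27 and 4.72 CPM in the ligated BA, without overlap, as for 21.0% of the genes tested there. In the BT media the groups overlapped, with 0.290 and 3.06 CPM in sham and 2.80 and 5.84 CPM in ligated rabbits. The log2 fold changes were 3.03 (SE 2.03, q = 0.542, edgeR) and 1.34 (SE 1.79, q = 0.768). Its ratio of BT to BA in the ligated intima was 1.52 in rabbit 5 and 1.28 in rabbit 6. In the reference assembly mOryCun1.1 the DUOX1 and DUOXA1 genes overlap in span. The amplification kit does not mark the strand, so reads from exons that the 2 genes share could not be told apart and their values are uncertain to that extent.

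DUOX2, the partner of DUOXA2, was counted in only 2 of the 16 libraries, both from the ligated BT intima, with 118 reads (10.2 CPM) in rabbit 5 and 19 reads (1.56 CPM) in rabbit 6. The 2 rabbits thus differed widely for DUOX2, while DUOXA2 was nearly level in the same libraries. Against 3 counts per sham library its mean was at least 18.3-fold higher. It did not pass in the BT intima (edgeR q = 0.341), and DESeq2 gave q = 0.0331. DUOX2 met the minimum of 1 CPM there only through the ligated libraries. Its direction was fixed by that minimum, and the DESeq2 value is not independent support for it. In the ligated BA intima, where DUOXA2 had 271 and 149 reads, DUOX2 had none. The limit that a count of 0 allows there was 0.319 CPM in rabbit 5 and 0.513 CPM in rabbit 6, below the BT level of either rabbit. These limits cover counting error only, and loss of a low transcript during amplification was not tested.

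Among the other catalytic subunits, none was present in all ligated intimal libraries. NOX1, the superoxide-forming oxidase known from colon and smooth muscle, had 29 reads (4.96 CPM) in the ligated BA intima of rabbit 6 and 35 reads (3.02 CPM) in the ligated BT intima of rabbit 5, and 0 in the other 14 libraries. CYBB, the phagocyte oxidase, had between 0 and 32 reads, with 4 reads in 1 ligated intimal library. NOX3 had no read in any library, and NOX5 had 7 reads in the sham BT intima of rabbit 3 alone.

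NOX4, an oxidase that forms hydrogen peroxide in endothelial and smooth muscle cells, went the other way from DUOX1 in the media. It lay at 50.9 and 9.81 CPM in the sham BA media and at 0.527 and 5.77 CPM in the ligated BA media. In the BT media it lay at 13.4 and 5.97 CPM in sham rabbits and at 0.935 and 0 CPM in ligated rabbits. Both ligated libraries were below both sham libraries at each location, as for 26.0% of genes tested in the first and 23.1% in the second. The log2 fold change in the BA media was -3.17 (SE 1.20, edgeR q = 0.307), and the BT media gave q = 0.249. NOX4 was at 0 in both ligated BA intimal libraries and at 1.58 and 5.98 CPM in the sham ones, a split of this direction that 20.0% of genes had there. In the BT intima it lay at 0.406 and 3.66 CPM in sham and at 0 and 2.39 CPM in ligated rabbits, with overlap. DESeq2 did not call it in any of the 4 comparisons, and with all genes tested it passed in the BA media (q = 0.0338). Of the 7 dual oxidase and NADPH oxidase genes, 3 were tested for the BA and 5 for the BT intima, and 2 and 3 for the media of BA and BT. With edgeR 0 passed in each.

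Of 12 oxidase subunits and regulators, 9 were measured, and CYBA, NOXA1 and NOXO1 were not analysed here. RAC1, the small GTPase that takes part in NOX1 and NOX2 activation, rose with ligation in the BT media, from 71.2 and 68.4 CPM in sham to 293 and 286 CPM in ligated rabbits (log2 fold change 2.06, SE 0.34, q = 0.00922, edgeR). It was the only one of the 7 list genes tested there that passed, against 2.35% of all genes. All 7 had a higher level in both ligated than in both sham BT media libraries, as 25.4% of all genes did. Of these, 2 (NCF4 and RAC2) had no sham read there, so the minimum of 1 CPM fixed their direction. The median log2 fold change of the 7, with these 2 included, was 2.06, where the median of all 8783 genes was 0.03. Elsewhere the log2 fold change of RAC1 was 1.98 (BA media, SE 0.38, q = 0.0583), 1.31 (BA intima, SE 0.48, q = 0.783) and 1.77 (BT intima, SE 0.46, q = 0.281). Its call in the BT media was lost without rabbit 6 (q = 0.0747) and in the fit over 16 libraries (q = 0.0710).

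PDIA3, a disulfide isomerase of the endoplasmic reticulum, lay at 432 and 238 CPM in the sham and 1147 and 1001 CPM in the ligated BT intima (log2 fold change 1.68, SE 0.46, q = 0.286). TXNDC11, a thioredoxin-domain protein that binds dual oxidases, lay at 2.37 and 4.04 CPM in the sham and 0.852 and 1.71 CPM in the ligated BA intima. In the BT intima it lay at 4.67 and 2.93 CPM in sham and 4.41 and 8.48 CPM in ligated rabbits, so its groups overlapped there. CYBC1, a chaperone of the NOX2 heterodimer, had log2 fold changes of -0.69 in the BA and 0.28 in the BT intima (q = 0.960 and q = 0.909), and POLDIP2, a NOX4 regulator, of 0.07 and 0.37 (q = 0.995 and q = 0.803). The phagocyte subunits were sparse. NCF1 had 1 read in all, NCF4 was at 0 in the 4 ligated intimal libraries with 94 and 0 reads in the sham BA and 137 and 11 reads in the sham BT intima, and RAC2, the GTPase of blood cells, had at most 82 reads.

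**Figure D5:**
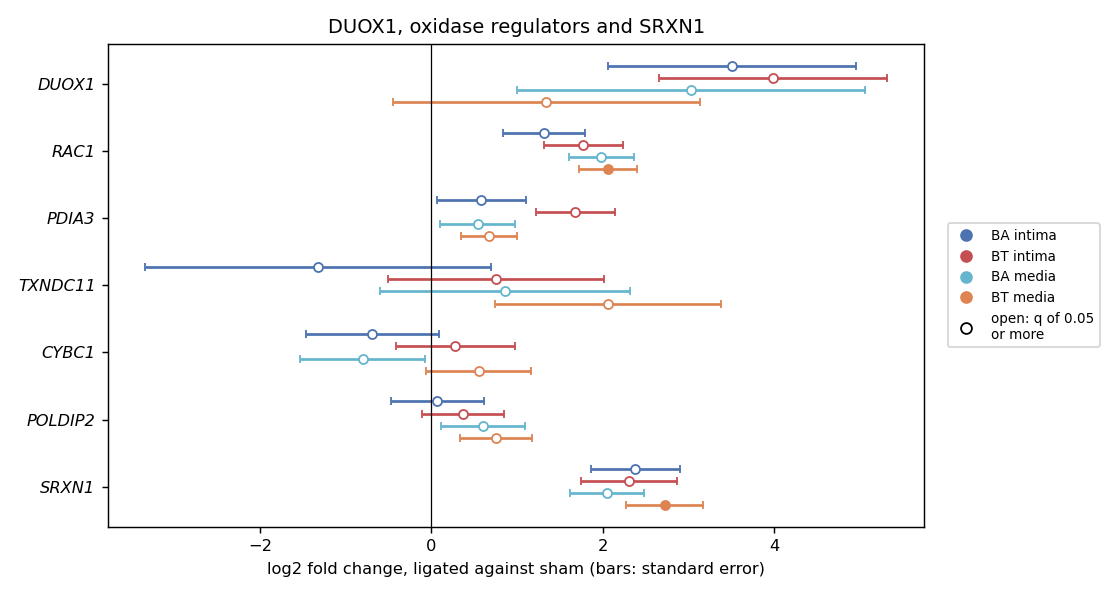
Fitted log2 fold change of ligated against sham (horizontal axis, bars are standard errors) for DUOX1, 5 oxidase regulators and SRXN1 in the 4 comparisons, each of 2 against 2 libraries. Filled symbols passed a q-value of 0.05, which only RAC1 and SRXN1 in the BT media did.

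The genes that make, use or remove hydrogen peroxide were counted over 6 lists with 65 genes, of which 50 were measured. In the intima 0 of 35 passed in the BA (5 at an unadjusted p below 0.05, against 5.95% of all genes, and 1 with DESeq2) and 0 of 35 in the BT (8 at an unadjusted p below 0.05, against 11.6% of all genes, and 6 with DESeq2), where edgeR called 0% of all genes. In the BA media 0 of 36 passed (8 at an unadjusted p below 0.05, against 13.6%, and 5 with DESeq2), and in the BT media 2 of 35, where 2.35% of all genes passed (6 at an unadjusted p below 0.05, against 16.0%, and 2 with DESeq2). In that order the listed genes had median log2 fold changes of 0.07, 0.13, 0.16 and 0.41, and that of all genes -0.10, -0.13, -0.15 and 0.03. For DESeq2 no share of all genes called is given, so its counts are not read as a result about the lists. Of its 6 calls in the BT intima, NCF4 fell (DESeq2 log2 fold change -8.49) and the others rose, DUOX2 with no sham read. Besides RAC1, SRXN1 passed in the BT media. SRXN1, sulfiredoxin, restores overoxidized peroxiredoxins. It rose there from 17.1 and 33.7 CPM to 172 and 164 CPM (log2 fold change 2.72, SE 0.45, q = 0.00922, edgeR), and the call was lost without rabbit 6 (q = 0.0636). Every ligated library held more SRXN1 than every sham one, at 138 to 203 CPM in the ligated and 21.5 to 54.0 CPM in the sham intima (log2 fold change 2.38, SE 0.52, q = 0.373 in the BA, and 2.31, SE 0.56, q = 0.279 in the BT). Within single comparisons, both ligated libraries lay above both sham ones for 15.4% (BA intima) to 25.4% (BT media) of all genes tested. The share with this split over all libraries, which come from 4 rabbits, is not given. DESeq2 called SRXN1 in the intima of the BA (q = 0.000643) and the BT (q = 0.00591), and so did edgeR with all genes tested (q = 0.00723 and q = 0.0200).

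By list, 10 of 18 genes of peroxide removal were measured and tested in each comparison, with intimal medians of 0.32 for the BA and 0.08 for the BT, and 1 of the 10, SRXN1, passed in the BT media. Of 14 other sources of peroxide, 11 were measured and 0 passed. The largest fitted changes in the intima were those of LOXL4, a lysyl oxidase family member, in the BA (at least 9.61-fold higher with ligation, edgeR q = 0.861) and of the extracellular superoxide dismutase SOD3 in the BT (4 and 20 reads in sham, 1 read in each ligated library, q = 0.574). All 8 heme peroxidases were measured, 0 passed, and LPO and MPO, which use peroxide in secretions and neutrophils, had no read in any library. PXDN, a matrix peroxidase, had the largest fitted change of this list in the BA intima (log2 fold change 1.16, edgeR q = 0.976) and EPX in the BT intima (-2.61, q = 0.627). Of 6 aquaporins, 5 were measured and 0 were tested in the intima.

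Between the layers, 0 of the 13 oxidase, subunit and regulator genes tested passed over 16 libraries (2 at an unadjusted p below 0.05, against 20.8% of all genes), where 7.17% of 10077 genes did. With rabbit as a block RAC1 passed (log2 difference, intima minus media, 0.60, SE 0.17, q = 0.0497). DESeq2 called RAC1 and NOX4, of which NOX4 was lower in the intima (-2.87, SE 1.12, q = 0.150 with edgeR). DUOX1 had a log2 difference of 0.58 (SE 0.71, q = 0.770).

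DUOXA2 and DUOXA1 stand next to each other in the reference assembly, between DUOX2 on one side and DUOX1 on the other. The next genes were SORD, TERB2 and TRIM69 beyond DUOX2, and SHF, SLC28A2 and GATM beyond DUOX1. SORD, the sorbitol dehydrogenase, had 17, 3, 58 and 0 reads in the ligated BA and BT intima and 5 reads in the sham BT intima of rabbit 3, so it was not counted in every ligated library. SHF, an adaptor protein, lay at 0.789 to 7.76 CPM in the sham and 0 to 1.38 CPM in the ligated intima. GATM, of creatine synthesis, lay at 7.17 to 17.0 CPM and 0 to 19.6 CPM. TERB2 had no read, SLC28A2 had 1 and TRIM69 had 2. The neighbours outside the cluster thus did not share the split of the DUOXA genes between sham and ligated intima.

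Likeness to each gene was measured by Pearson's r of log2(CPM + 0.5) over the 8 intimal libraries among 9644 genes, as a description, since the libraries come from 4 rabbits and the DUOXA genes were chosen on them. The 5 genes most like DUOXA1 were FKBP1A (r = 0.988), SERPINB6 (0.987), DBNDD2 (0.979), MRPL18 (0.979) and DUSP22 (0.978). Those most like DUOXA2 were GPRC5A (0.987), S100A11 (0.987), SDF2L1 (0.983), TIMP1 (0.982) and ANXA3 (0.982). DUOXA2 ranked 13 for DUOXA1 (0.969), as DUOXA1 did for DUOXA2. DUOX1 ranked 38 for DUOXA1 (0.947), from whose reads its own could not be told apart in shared exons, and 19 for DUOXA2 (0.964). DUOX2 ranked 679 (0.730) and 1049 (0.635). Unlike the DUOXA genes, these 10 were counted in every sham intimal library, the lowest of them DUSP22 at 6.30 CPM or more. FKBP1A lay at 100 to 124 CPM in the sham and 204 to 371 CPM in the ligated intima, and TIMP1, the metalloproteinase inhibitor, at 349 to 656 CPM and 4763 to 17325 CPM.

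Markers of other cells were read in the same intimal libraries. Of 12 epithelial markers 10 were measured, with 1 to 3 counted in a library, and their sum was 0.822 to 74.6 CPM in the sham and 8.09 to 205 CPM in the ligated intima. KRT19, a keratin, made up nearly all of the ligated sums, at 7.99 to 205 CPM, and EPCAM was at 0 in the 4 ligated intimal libraries. Of 11 neutrophil markers 8 were measured, with a sum of 27.9 to 462 CPM in the sham and 724 to 2602 CPM in the ligated intima. S100A9 made up nearly all of the ligated sums, at 723 to 2574 CPM, against 17.1 to 315 CPM in the sham intima. S100A8, by contrast, lay at 1.58 to 146 CPM in the sham and 0.513 to 28.5 CPM in the ligated intima. MMP9 reached 3.65 CPM in the sham and 0.106 CPM in the ligated intima. MPO and MMP8 were at 0 in all 16 libraries, and CSF3R, LTF and CAMP were at 0 in the 4 ligated intimal ones. Of 9 leptomeningeal markers 6 were measured, and their sum was 2902 to 16160 CPM in the sham and 207 to 3677 CPM in the ligated intima. For the 9 macrophage markers, all measured, it was 77.3 to 1111 CPM and 60.4 to 203 CPM. The part of these cells in the DUOXA levels was not tested.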

How the data were processed

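RNA from laser-microdissected strips was amplified, and 75-cycle single reads were made. Per the labels and the study's methods, the authors used bcl2fastq 2.20.0.422, mapped reads to OryCun2.0 with STAR, sorted them with SAMtools 1.9 and counted exonic reads with featureCounts 1.6.2 in 1 orientation. The authors' table holds unnormalized counts by gene symbol, as deposited. The entry without a symbol (13.8% to 18.7% of reads) was left out of library sizes. The 22 symbols turned into dates stayed in the counts and library sizes but are not named, and 0 columns were left unused.

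From these counts, TMM CPM were computed over the 16 libraries. Ligation was tested within each location and layer (2 against 2 libraries), location within the intima and layer over 16 libraries, by the quasi-likelihood F test of edgeR 4.0.16 (R 4.3.3) with Benjamini-Hochberg adjustment (q). The genes tested were those with a mean above 1 CPM in at least 1 group of the fit. A gene passed at q below 0.05. DESeq2 1.42.0, other scalings, filters and fits, and leaving out each rabbit were the alternatives. The scripts were tested on simulated data. With 2 rabbits per group, p-values rest on few animals.

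Rabbit numbers pair the locations and layers of 1 animal. Deviations of same-rabbit libraries from their group means correlated at -0.0348 to 0.394 over 12 pairs.

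Named were both DUOXA genes, all measured oxidase and subunit genes, from each other list the genes that passed and the one with the largest fitted change in each intimal comparison, the 5 genes most like each DUOXA gene, and up to 3 neighbours on each side. The genes and lists were chosen with earlier results of these data known. Gene order came from mOryCun1.1, another assembly than that of the counts, so no coordinates are given. Results on some genes of the lists are not reported here.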

Additional observations from a re-analysis of the deposited data

How the results depend on the processing

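With 2 rabbits per group and few medial reads, the medial results depended most on the processing, and causes were not tested unless given. For DUOXA2 in the BT media q was 0.0489, and it was 0.0535 with RLE scaling, 0.0617 with filterByExpr, 0.168 in a fit over the layer, 0.151 over 16 libraries, 0.125 in the edgeR version 4 form and 0.0102 to 0.31 without 1 rabbit. For DUOXA1 there q was 0.0899, and it was 0.0187 with no filter, 0.00921 with DESeq2 and 0.0432 to 0.321 without 1 rabbit. DUOXA2 in the BA media stayed above the threshold under 9 alternatives, at 0.188 to 0.836. It had no value with DESeq2, whose adjusted p was NA.

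Here and below, counts of calls under the alternatives stand without the share of all genes called, and are not read as a result about the lists. The calls in the oxidase and peroxide lists were 0 in the BA intima, and 1 with no filter and 1 with DESeq2. In the BT intima they were 0, and 1 with no filter, 6 with DESeq2 and 1 over 16 libraries. In the BA media they were 0, and 1 with library size scaling, 6 with no filter, 5 with DESeq2 and 3 in the fit over the layer. In the BT media they were 2, and 1 over 16 libraries and 0 to 4 without 1 rabbit (0 without rabbit 6, 4 without rabbit 3 or 4).

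With rabbit as a replicate block, the difference between BT and BA was 2.51 for DUOXA1 (edgeR q = 0.963) and 1.26 for DUOXA2 (edgeR q = 0.963), so neither call changed. Between layers the block gave 1 call in the oxidase lists, against 0 without it, and there were 1 with library size scaling, 1 with no filter and 2 with DESeq2. Location differences kept their direction under 12 alternatives each, at 1.44 to 3.60 and 1.25 to 1.29. With library size scaling the levels were 52.5 CPM for DUOXA1 in the BT and 29.6 and 72.5 CPM for DUOXA2 in the BA and BT ligated intima. Of the 5 genes most like DUOXA1, 2 stayed with a pseudocount of 0.1, and over all 16 libraries 0 stayed for DUOXA1 and 0 for DUOXA2.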

Other observations

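Genes that act upstream of DUOX expression in epithelia were read from a list of 15, of which 14 were measured. IL4, IL13 and IFNG, the cytokines best known to raise DUOX genes there, had no read in any library. Of the genes tested, 0 of 10 in the BA intima and 0 of 9 in the BT intima passed (edgeR), with medians of 0.07 and 0.73. TLR4, the receptor for bacterial lipopolysaccharide, had the largest fitted change in both. It lay at 0.282 to 11.4 CPM in the sham and 3.94 to 39.2 CPM in the ligated intima, with log2 fold changes of 3.67 in the BA (standard error 1.52, q = 0.807, edgeR) and 2.26 in the BT (standard error 0.84, q = 0.386). Both ligated libraries lay above both sham libraries at each location, as for 15.4% of all genes tested in the BA and 20.4% in the BT intima. Over the locations the ranges of TLR4 overlap.

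Of 14 genes of thyroid hormone synthesis and handling, 9 were measured and 0 passed in any comparison (edgeR). TSHR, PAX8 and FOXE1, which mark thyroid cells, had no read in any library, including those with DUOXA reads. TTR, the thyroid hormone carrier of the choroid plexus, lay at 0 to 100 CPM in the sham intima, the highest in the BT of rabbit 3, and at 0 CPM in all 4 ligated intimal libraries. SLC26A4, an anion exchanger, had the largest fitted change in the BA intima with a sham level that came from 1 library.

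In the BT media S100A9, a calcium-binding protein of myeloid cells, rose with ligation (log2 fold change 7.38, edgeR q = 0.00384) and the contractile smooth muscle genes MYH11 (log2 fold change -1.70, edgeR q = 0.0221) and LMOD1 (-1.50, q = 0.0438) fell, where 2.35% of genes passed. The other 4 smooth muscle markers measured did not pass there, and 2 of them had higher means with ligation, DES at 918 and 1883 CPM and SMTN at 395 and 533 CPM in sham and ligated rabbits. OGN, a matrix proteoglycan on the leptomeningeal list, fell in the BT media (-2.75, q = 0.00116, edgeR) and the BA media (-1.84, q = 0.0219). DCN, another such proteoglycan, fell (-1.72, q = 0.0481) and ALDH1A2, a retinoic acid enzyme, rose (2.47, q = 0.0311) in the BA media. The S100A9 call was lost in the fits over the layer (q = 0.066) and over 16 libraries (q = 0.19). The part of these changes in the medial DUOXA reads was not tested.

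In the intima 0 genes of the marker lists passed with edgeR. The endothelial gene with the largest fitted change was TEK, the angiopoietin receptor, in the BA (log2 fold change 1.23, q = 0.840) and KDR, a VEGF receptor, in the BT (-5.31, q = 0.393). For smooth muscle it was MYH11 in the BA (-1.63, q = 0.752) and LMOD1 in the BT (-1.42, q = 0.483). The blood cell genes PTPRC in the BA (300 and 3 reads in sham, 0 in ligated, q = 0.752) and C1QA in the BT (1800 and 15 reads in sham, 0 in ligated, q = 0.281) led the macrophage list, each mostly through rabbit 3. In the neutrophil list S100A9 led in the BA (3.70, q = 0.639), and MMP9 led in the BT with reads in 1 sham library. KRT19 in the BA (6.35, q = 0.700) and CDH1 in the BT led the epithelial list. Of the leptomeningeal genes, LUM in the BA (6240 and 121 reads in sham, 0 in ligated, q = 0.269) and SLC22A6 in the BT (3911 and 29 reads in sham, 0 in ligated, q = 0.279) had the largest fitted values, again mostly through rabbit 3. The neural markers summed to 0.673 to 10.9 CPM in the sham and 0 to 8.23 CPM in the ligated intima, with SYT1 leading in the BA (-4.11, q = 0.862), and the smooth muscle markers to 19530 to 74417 CPM and 10590 to 46619 CPM.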
